A study of Mus musculus with 20 samples.

Results

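The 10 genes described here encode the glucose transporter and glycolytic enzymes that many tissues other than the hepatocyte rely on, with enzymes of the shared lower pathway: Slc2a1, Hk1, Hk2, Hk3, Pfkp, Aldoa, Gapdh, Pgk1, Eno1 and Pkm. They were chosen by gene name, with no measured value in the rule, and each had 1 row among the 38924 genes of the expression table. All 10 passed the filter on low values, an FPKM above 0.5 in at least 5 of the 20 libraries, as did 14524 genes in all. Pfkp passed it only through groups in which it was high, as given below. FPKM is the number of fragments per kilobase of gene, scaled to the same total of fragments assigned to genes in each library, so levels of different genes can be set side by side.

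Liver RNA was sequenced from 20 mice in 4 groups of 5. All were of the C57/BL6 background per the labels (C57BL/6J in the study's methods). NDWT were wild type (WT) mice on control diet, NDKO were TSP-1 null mice on control diet, HFWT were WT mice on CDAHFD and HFKO were TSP-1 null mice on CDAHFD. CDAHFD is a high fat diet that lacks choline, limits methionine and gives its protein as defined amino acids. It produces steatohepatitis and fibrosis in mice. The study's methods give male mice bought at 5 weeks of age, 1 week of acclimation and 12 weeks on diet. WT and TSP-1 null mice were purchased lines, so that genotype and origin of the mice cannot be told apart. Replicates were separate mice, named here by group and replicate number (HFKO5).

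Glycolysis converts glucose to pyruvate, and most of its steps can be run by more than 1 isoform. Hepatocytes take up glucose through Slc2a2 and rely on isoforms of their own, among them Pfkl and the liver pyruvate kinase Pklr, whereas macrophages, stromal cells, proliferating cells and most other tissues rely on Slc2a1, Hk1 to Hk3, Pfkp, Aldoa and Pkm. Gapdh, Pgk1 and Eno1 serve the lower part of the pathway in nearly every cell, also in hepatocytes, where the same reactions run towards glucose during gluconeogenesis. Gapdh is widely used as a reference transcript and was the reference gene of the study's own quantitative PCR.

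CDAHFD was accompanied by higher RNA of the glucose transporter, the 3 hexokinases, Pfkp, Aldoa and Pkm in both genotypes, while Gapdh and Pgk1 did not pass the test on FPKM as deposited and had negative log2FCs under median of ratios scaling. Under that scaling Aldoa and Slc2a1 lost their calls in TSP-1 null livers. By limma on log2(FPKM + 0.1), 7 of the 10 genes were higher DEGs in HFWT against NDWT, and 7 of 10 in HFKO against NDKO. A DEG here has a Benjamini-Hochberg FDR under 0.05 over all tested genes and a log2FC past 0.58 in either direction. Of all tested genes, 44.1% were higher and 4.62% lower DEGs in the WT comparison, and 41.9% higher and 4% lower in the other, so many genes were higher besides these. All CDAHFD mice lay above all control mice for 8 of the 10 genes in WT livers, where that held for 50.5% of tested genes, and for 7 in TSP-1 null livers, where it held for 52.7%. The FDR alone was passed by 8 genes in each genotype, against 73.1% and 71.6% of tested genes. The median log2FC over all tested genes was 0.53 in WT livers and 0.50 in TSP-1 null livers, against a median of 1.51 and 1.39 over the 10 genes.

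Libraries held 15641544 to 23276327 fragments assigned to genes, recovered from FPKM and gene length, and no pair of libraries within a group were copies of each other. The targeted gene, Thbs1, did not separate the genotypes in the way a deletion would: its FPKM was 0.0580 to 0.326 in NDWT but 0.986 to 1.90 in NDKO (log2FC 2.28, limma FDR 1.02e-05), and 3.46 to 6.10 in HFWT against 3.05 to 4.40 in HFKO. A value over the whole gene does not show whether the deleted part was transcribed, so it does not check the labels, and genotype directions below refer to the libraries labelled TSP-1 null. HFWT5 stood apart by the gene models Gm26924 and Gm23935. Gm26924 took 4.47% of its fragments and at most 1.83% in the other 19 libraries, and Gm23935 took 1.08% and at most 0.229%.

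In NDWT livers Gapdh had the highest mean of the 10 genes (439 FPKM), followed by Pgk1 (124), Eno1 (87.5), Aldoa (42.1), Pkm (11.3), Slc2a1 (4.10), Hk3 (3.32), Hk1 (0.770), Hk2 (0.588) and Pfkp (0.492). The ranges of Slc2a1 and Hk3 overlapped, as did those of Hk1 and Hk2 and of Hk2 and Pfkp, and the other neighbours in that order did not overlap. In HFWT livers the order was Gapdh (409), Pgk1 (117), Eno1 (113), Pkm (97.1), Aldoa (94.0), Hk3 (14.9), Slc2a1 (9.36), Hk1 (3.15), Hk2 (2.79) and Pfkp (2.73). Pkm had reached the levels of Aldoa and Eno1, whose ranges it overlapped.

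**Figure D1:**
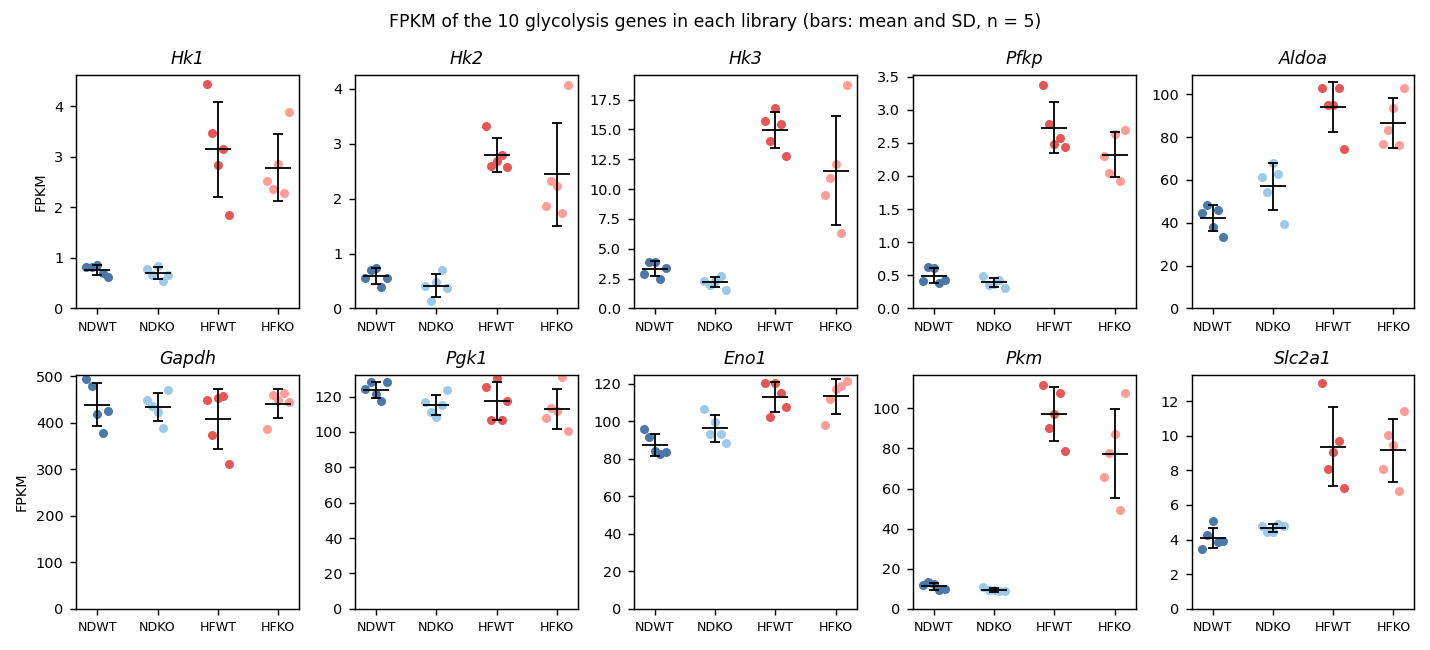
FPKM of the 10 glycolysis genes in each of the 20 libraries, 1 panel per gene with its own linear axis from 0; points are mice, bars the mean and SD of 5 mice. Every CDAHFD library lies above every control library of the same genotype for Hk1, Hk2, Hk3, Pfkp, Aldoa, Pkm and Slc2a1, whereas the groups overlap for Gapdh and Pgk1 at this scaling; after median of ratios scaling both are lower on CDAHFD.

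Hexokinases trap glucose in the cell as glucose 6-phosphate, and Hk1, Hk2 and Hk3 have a high affinity for glucose. Hk2 (ENSMUSG00000000628.4, GRCm38 chromosome 6, 82725025 to 82774454, minus strand) is the inducible form of muscle, fat and proliferating cells. Its FPKM was 0.547, 0.703, 0.744, 0.391 and 0.554 in NDWT1 to NDWT5 and 3.33, 2.60, 2.69, 2.79 and 2.57 in HFWT1 to HFWT5. In the libraries labelled TSP-1 null it was 0.414, 0.133, 0.475, 0.702 and 0.365 on control diet and 1.87, 2.32, 2.24, 1.73 and 4.06 on CDAHFD. All CDAHFD values lay above all control values, and HFKO5 lay far above the other HFKO mice. The log2FC was 2.09 (SE 0.26, limma FDR 7.00e-07) in WT livers and 2.34 (SE 0.26, FDR 1.81e-07) in TSP-1 null livers, or 4.26-fold and 5.05-fold. Control libraries held only 18 to 79 fragments of Hk2, so its control level is known less closely than that of the other genes.

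Hk3 (ENSMUSG00000025877.8, chromosome 13, 55005985 to 55021385, minus strand) is found chiefly in myeloid cells. It measured 2.92, 3.91, 3.92, 2.49 and 3.36 FPKM in NDWT and 15.7, 14.04, 16.8, 15.4 and 12.8 in HFWT. The TSP-1 null values were 2.34, 1.98, 2.34, 2.75 and 1.59 in NDKO and 9.52, 10.9, 12.1, 6.34 and 18.7 in HFKO. The diet groups did not overlap in either genotype, and the HFKO mice spanned a wider range than the HFWT mice. The log2FC was 2.15 (SE 0.21, limma FDR 2.11e-08) in WT livers and 2.27 (FDR 1.18e-08) in TSP-1 null livers.

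Hk1 (ENSMUSG00000037012.12, chromosome 10, 62268855 to 62379908, minus strand), the hexokinase of brain and red cells, rose from 0.770 ± 0.0995 to 3.15 ± 0.943 FPKM in WT (SD, n = 5) and from 0.699 ± 0.118 to 2.79 ± 0.660 in TSP-1 null livers. That is a log2FC of 1.86 (SE 0.19, limma FDR 3.57e-08) and 1.84 (FDR 4.68e-08). HFWT5 was the lowest HFWT library at 1.84 FPKM, still above the highest NDWT library at 0.863.

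The sequence upstream of 4 of the genes is shown because 2 of them, Hk2 and Hk3, rose with diet and the other two, Gapdh and Pgk1, did not pass the test on FPKM as deposited. Each is the 250 bases before a RefSeq transcription start on GRCm38.p6, written 5′ to 3′ on the strand of the gene. None overlapped an exon of the GENCODE annotation, and that of Gapdh lies inside the span the expression table gives for the gene. Capitals mark ACGTG, the core of the hypoxia response element, and the related GCGTG, on either strand, so that CACGT and CACGC are the same motifs read on the opposite strand. The windows are chr6:82774455-82774704 on the minus strand for Hk2, chr13:55021386-55021635 on the minus strand for Hk3, chr6:125165774-125166023 on the minus strand for Gapdh and chrX:106186850-106187099 on the plus strand for Pgk1.
Hk2: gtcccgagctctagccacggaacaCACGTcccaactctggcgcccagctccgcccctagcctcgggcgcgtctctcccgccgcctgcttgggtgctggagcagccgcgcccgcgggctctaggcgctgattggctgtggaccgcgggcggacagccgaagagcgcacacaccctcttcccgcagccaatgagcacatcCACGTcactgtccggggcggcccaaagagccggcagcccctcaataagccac
Hk3: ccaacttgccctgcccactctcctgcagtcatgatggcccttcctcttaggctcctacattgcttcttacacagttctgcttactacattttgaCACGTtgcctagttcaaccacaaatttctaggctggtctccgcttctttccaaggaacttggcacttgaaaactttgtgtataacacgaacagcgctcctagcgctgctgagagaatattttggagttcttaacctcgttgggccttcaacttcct
Gapdh: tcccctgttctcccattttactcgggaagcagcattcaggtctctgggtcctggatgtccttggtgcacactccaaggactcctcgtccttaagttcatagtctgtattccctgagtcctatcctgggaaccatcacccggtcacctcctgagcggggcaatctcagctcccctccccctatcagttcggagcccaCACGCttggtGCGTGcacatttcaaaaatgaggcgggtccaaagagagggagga
Pgk1: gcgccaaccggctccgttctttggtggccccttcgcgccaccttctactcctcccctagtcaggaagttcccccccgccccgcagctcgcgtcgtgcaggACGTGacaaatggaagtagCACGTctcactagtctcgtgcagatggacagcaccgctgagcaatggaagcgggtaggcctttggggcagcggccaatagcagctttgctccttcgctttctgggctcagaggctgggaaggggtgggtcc
ACGTG occurred 2 times in the Hk2 window, 1 time in that of Hk3 and 2 times in that of Pgk1, and GCGTG occurred 2 times in that of Gapdh. These are 4 chosen windows, and any part of the motifs in the diet differences was not tested. Hk1, which also rose, has a window with 0 of either motif and another, overlapping an exon, with GCGTG 3 times. Over the 16 RefSeq windows of the 10 genes, several of which overlap each other or an exon, ACGTG was in 7, GCGTG in 7, the GC box GGGCGG in 9, and the E-box CACGTG and TATAAA in 0. Of the 32851 RefSeq windows of the same length in the mouse genome, 16.6% held ACGTG, 28.2% GCGTG, 32.7% GGGCGG, 6.02% CACGTG (which contains ACGTG) and 12.4% TATAAA. A match describes letters in a window and does not show that a factor bound there.

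Slc2a1 (ENSMUSG00000028645.4, chromosome 4, 119108711 to 119137330, plus strand) encodes GLUT1, the transporter for basal glucose uptake in most cells. Its FPKM was 3.48, 4.24, 5.04, 3.84 and 3.92 in NDWT and 13.0, 8.09, 9.06, 9.66 and 6.96 in HFWT. The TSP-1 null values were 4.77, 4.41, 4.44, 4.91 and 4.79 in NDKO and 8.05, 10.04, 9.43, 6.78 and 11.4 in HFKO. Every CDAHFD mouse was above every control mouse. The log2FC was 1.15 (SE 0.15, limma FDR 9.05e-07) in WT livers and 0.94 (SE 0.15, FDR 1.26e-05) in TSP-1 null livers, which is 0.62 and 0.44 above the median of all tested genes. The call in TSP-1 null livers was lost under median of ratios scaling (log2FC 0.42, limma FDR 0.0116) and quantile normalization (0.39, FDR 0.0189), and that in WT livers under quantile normalization (0.57, FDR 0.00136), where the log2FC missed the fold threshold.

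Pfkp (ENSMUSG00000021196.7, chromosome 13, 6579768 to 6648777, minus strand) is the platelet form of phosphofructokinase, the enzyme that commits sugar to glycolysis. It rose from 0.412, 0.625, 0.604, 0.385 and 0.432 FPKM in NDWT to 3.38, 2.78, 2.48, 2.58 and 2.43 in HFWT. In the libraries labelled TSP-1 null it went from 0.490, 0.356, 0.370, 0.433 and 0.316 to 2.30, 2.05, 2.63, 1.92 and 2.70. The groups were far apart, with a log2FC of 2.27 (SE 0.14, limma FDR 7.48e-11) and 2.29 (FDR 8.73e-11). Levels were low throughout, with 60 to 101 fragments in control libraries and 301 to 569 on CDAHFD. On control diet only NDWT2 (0.625) and NDWT3 (0.604) exceeded 0.5 FPKM. Pfkp thus passed the filter on low values only through the CDAHFD groups, where it was high.

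Aldoa (ENSMUSG00000030695.7, chromosome 7, 126795234 to 126800751, minus strand) is the aldolase of muscle and most other tissues. It measured 44.6, 48.4, 38.2, 46.1 and 33.4 FPKM in NDWT and 103, 94.8, 94.9, 103 and 74.4 in HFWT. The TSP-1 null values were 61.2, 54.2, 67.7, 62.7 and 39.4 in NDKO and 76.5, 83.4, 93.7, 76.5 and 103 in HFKO. Control and CDAHFD mice did not overlap within a genotype, although the gap was narrower in the libraries labelled TSP-1 null. The log2FC was 1.16 (SE 0.14, limma FDR 3.61e-07) in WT livers and 0.62 (SE 0.14, FDR 0.000530) in TSP-1 null livers. The difference between these effects, an interaction log2FC of −0.54 (SE 0.19), had an FDR of 0.184 and did not pass. In TSP-1 null mice Aldoa was only 0.12 above the median log2FC of all tested genes, and its call was lost without NDKO5 (log2FC 0.49), without HFKO5 (0.55), and under median of ratios scaling (0.10) or quantile normalization (0.55).

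Pkm (ENSMUSG00000032294.10, chromosome 9, 59656368 to 59679375, plus strand) encodes the M1 and M2 forms of pyruvate kinase, which gene-level values do not separate. The NDWT mice had 11.7, 13.2, 12.4, 9.13 and 9.97 FPKM and the HFWT mice 112, 90.3, 97.3, 108 and 78.6. NDKO mice had 10.8, 9.26, 9.49, 8.76 and 8.77 and HFKO mice 65.6, 77.8, 87.4, 49.1 and 107. The lowest CDAHFD library exceeded the highest control library by far, and Pkm had the largest log2FC of the 10 genes in both genotypes. It was 3.09 (SE 0.16, limma FDR 4.44e-12) in WT, 8.54-fold, and 2.98 (FDR 1.04e-11) in TSP-1 null livers, 7.89-fold. Of all tested genes 97.4% had a lower log2FC than Pkm in WT livers and 97.8% in TSP-1 null livers.

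Eno1 (ENSMUSG00000063524.7, chromosome 4, 150236721 to 150248879, plus strand) is the enolase of liver and most other tissues. Its FPKM was 95.8, 91.6, 84.1, 82.6 and 83.6 in NDWT and 120, 102, 120, 115 and 108 in HFWT. The TSP-1 null values were 107, 93.0, 99.6, 93.4 and 88.3 in NDKO and 98.0, 112, 117, 119 and 121 in HFKO. WT diet groups did not overlap, whereas HFKO1 lay within the NDKO range. The log2FC of 0.37 (SE 0.07, limma FDR 0.000112) in WT livers and 0.24 (FDR 0.00571) in TSP-1 null livers passed the FDR but not the fold threshold, and turned to −0.17 and −0.28 under median of ratios scaling (FDR 0.0297 and 0.00104).

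Gapdh (ENSMUSG00000057666.12, chromosome 6, 125161853 to 125166467, minus strand) oxidises glyceraldehyde 3-phosphate, and Pgk1 (ENSMUSG00000062070.6, chromosome X, 106187100 to 106203699, plus strand) makes the first ATP of the pathway. Gapdh measured 494, 479, 419, 379 and 425 FPKM in NDWT and 449, 374, 453, 457 and 312 in HFWT. The TSP-1 null values were 449, 437, 423, 390 and 471 in NDKO and 387, 461, 448, 463 and 446 in HFKO. The 4 groups overlapped, and HFWT5 and HFWT2 were the lowest libraries. Its log2FC with diet was −0.11 (95% confidence interval −0.32 to 0.10, limma FDR 0.322) in WT livers and 0.02 (−0.19 to 0.23, FDR 0.846) in TSP-1 null livers on FPKM as deposited, but −0.65 (FDR 3.84e-06) and −0.50 (FDR 0.000102) under median of ratios scaling. Pgk1 ranged from 117 to 128 FPKM in NDWT and 107 to 130 in HFWT, and 109 to 124 in NDKO and 101 to 131 in HFKO. Its log2FC was −0.08 (−0.23 to 0.07, FDR 0.310) and −0.03 (−0.18 to 0.11, FDR 0.682), and −0.62 and −0.55 under median of ratios scaling.

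**Figure D2:**
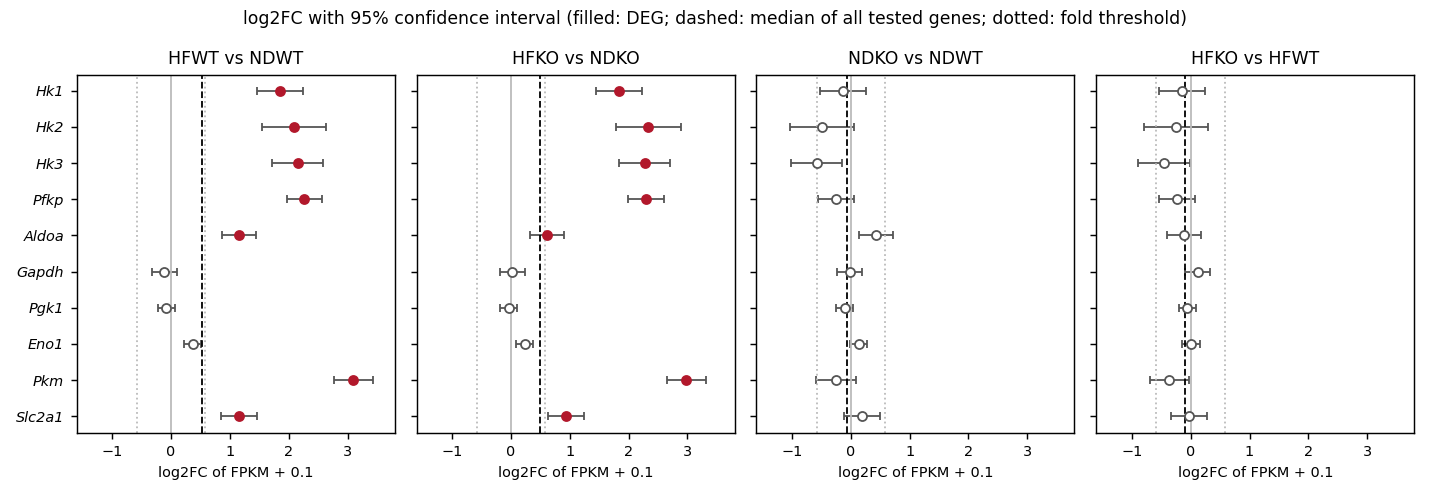
log2FC of FPKM + 0.1 with the 95% confidence interval for the 10 glycolysis genes in the 4 comparisons (limma, 5 mice a group); filled points are DEGs, the dashed line is the median of all tested genes and dotted lines mark the fold threshold. Pkm is farthest from 0 in both diet comparisons, Gapdh and Pgk1 lie at 0 as deposited and below the median of all genes, and no point is filled in the genotype comparisons.

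The direction or call of Gapdh, Pgk1 and Eno1 depended on the scaling between libraries. FPKM fixes the sum over genes in each library, and on CDAHFD many genes were higher. Summed FPKM of 10 hepatocyte markers was lower in HFWT than in NDWT, but NDKO and HFKO overlapped. Single markers differed: Alb averaged 27881 FPKM in NDKO and 29725 in HFKO, and Hpx was higher on CDAHFD in both genotypes. The part of hepatocyte transcripts in the dependence on scaling was not tested. Size factors computed as medians of ratios on FPKM were 0.788 to 0.872 in control libraries and 1.11 to 1.32 on CDAHFD, without overlap. Dividing by them moved the median log2FC of all genes from 0.53 to 0.01 in WT livers and from 0.50 to 0.00258 in TSP-1 null livers, and the DEGs from 6412 higher of 7083 to 3351 of 5496 in WT livers and from 6088 of 6669 to 3283 of 5204 in TSP-1 null livers. Quantile normalization gave 2514 higher of 5076 and 2421 of 4607. Among the 10 genes median of ratios scaling gave 7 higher and 2 lower DEGs (Gapdh and Pgk1) in WT livers and 5 higher in TSP-1 null livers, and quantile normalization 6 and 5 higher. Hk1, Hk2, Hk3, Pfkp and Pkm were DEGs under all 3 scalings in both genotypes.

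**Figure D3:**
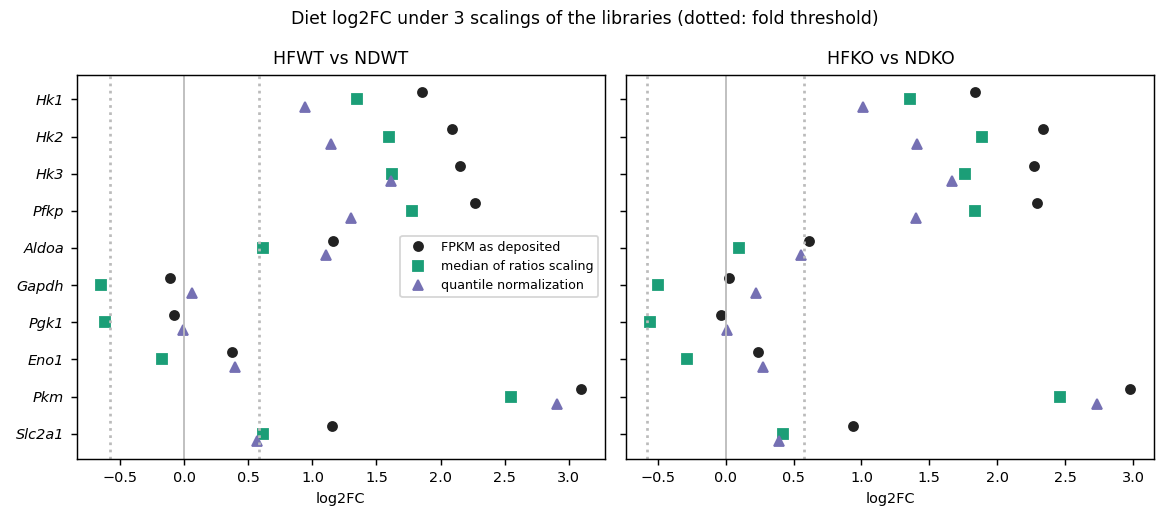
log2FC with diet of the 10 glycolysis genes in WT (left) and TSP-1 null mice (right) under 3 scalings of the libraries: FPKM as deposited, median of ratios scaling and quantile normalization; dotted lines mark the fold threshold. Hk1, Hk2, Hk3, Pfkp and Pkm stay above the threshold, whereas Gapdh and Eno1 in TSP-1 null livers and Eno1 in WT mice cross 0 under median of ratios scaling.

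As reference transcripts, Pgk1 and Gapdh varied little over the 20 libraries in FPKM as deposited. The SD of log2(FPKM + 0.1) was 0.110 for Pgk1, 0.156 for Gapdh and 0.190 for Eno1, and 0.819%, 5.43% and 10.6% of tested genes had a lower SD. It was 0.527 for Aldoa, 0.584 for Slc2a1 and 0.990 to 1.59 for Hk1, Pfkp, Hk3, Hk2 and Pkm. Of 15 transcripts often used as references, Eef1a1, a translation elongation factor, varied least (SD 0.0739) and Actb, cytoskeletal actin, most (0.858). In WT mice 7 of the 15 were higher DEGs with diet and 0 lower, among them Gusb (log2FC 1.54), Ywhaz (0.87), Ppia (0.68) and Actb (1.42), and in TSP-1 null livers 5 were higher and 0 lower. The median log2FC of the 15 was 0.54 and 0.39, and the share of higher DEGs over all tested genes was 44.1% and 41.9%, so the share among these transcripts was near or under that of all genes. Between genotypes 0 were DEGs by limma on either diet, with 3 at an unadjusted p under 0.05 on control diet and 1 on CDAHFD. Of all tested genes 4.77% were DEGs between genotypes on control diet and 0.496% on CDAHFD.

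Ratios between isoforms of a step compare genes within a library, so that, apart from the pseudocount, a scale factor per library does not change them. Log2 ratios of FPKM + 0.1 were compared for 4 pairs by exact permutation tests over mice (two-sided, smallest possible p 0.00794), with p-values adjusted over the 32 tests of all ratios and comparisons computed. Of the 4, Pkm to Pklr and Pfkp to Pfkl passed with diet in both genotypes, both higher.

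Of these the Pkm to Pklr ratio moved most. Its log2 value was −1.22, −1.20, −1.22, −0.58 and −1.03 in NDWT and 1.58, 1.81, 1.74, 2.10 and 1.58 in HFWT, so that every NDWT mouse had less Pkm than Pklr and every HFWT mouse more. Pkm made up 29.9% to 40.0% of the FPKM of both genes in NDWT and 74.9% to 81.1% in HFWT. The difference was 2.81 (exact permutation p 0.00794, adjusted 0.0254). Pklr itself was 24.2 FPKM in NDWT and 28.7 in HFWT (limma FDR 0.311). In TSP-1 null livers Pklr was itself a higher DEG, at 13.7 FPKM in NDKO and 31.1 in HFKO (log2FC 1.16, limma FDR 0.000365). In the libraries labelled TSP-1 null the log2 ratio was −0.12, −0.57, −0.20, −0.16 and −1.32 on control diet and 1.06, 1.76, 1.84, −0.09 and 2.15 on CDAHFD, a difference of 1.82 (adjusted p 0.0254, exact permutation). HFKO4 was the only CDAHFD mouse with less Pkm than Pklr, at 49.1 against 52.3 FPKM.

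Pfkp against Pfkl, the liver phosphofructokinase, rose by 1.56 in WT livers and 1.36 in TSP-1 null livers (adjusted p 0.0254 each, exact permutation), from 4.14% to 5.90% of the FPKM of both genes in NDWT to 14.3% to 16.1% in HFWT. Pfkl was itself a higher DEG (log2FC 0.71 and 0.93) and stayed the more abundant of the pair in every library. The Slc2a1 to Slc2a2 ratio differed by 0.87 (adjusted p 0.0635) and 0.06 (0.844), and the ratio of Eno1 to Eno3, the muscle enolase, by −0.09 and −0.02 (adjusted p 0.620 and 0.913). Slc2a2 was itself a higher DEG in TSP-1 null livers (log2FC 0.88, limma FDR 2.34e-05) but not in WT livers (0.28, FDR 0.0850).

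**Figure D4:**
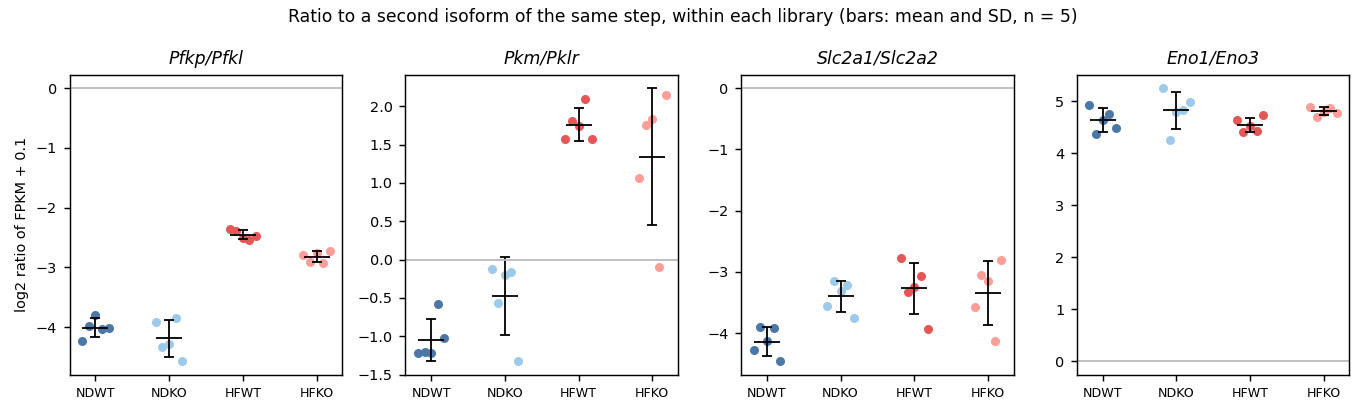
Log2 ratio of FPKM + 0.1 of Pfkp, Pkm, Slc2a1 and Eno1 to a second isoform of the same step in each of the 20 libraries, 1 panel per pair with its own axis; bars are the mean and SD of 5 mice and the grey line marks equal levels. Pkm/Pklr crosses from below to above 0 with CDAHFD in all but HFKO4, while Pfkp/Pfkl rises but remains below 0.

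The genotype comparisons use the same NDWT, NDKO, HFWT and HFKO libraries as those of diet, so their values are not independent of them. On control diet, 0 of the 10 genes were DEGs in NDKO against NDWT by limma, where 4.77% of all tested genes were, 0 were without overlap between the groups (9.03% of tested genes), 1 passed the FDR alone (13.1%), and 2 had an unadjusted p under 0.05. These were Aldoa and Hk3. Aldoa had a log2FC of 0.42 (SE 0.14, limma FDR 0.0478), which missed the fold threshold. Hk3 had a log2FC of −0.57 (SE 0.21, FDR 0.0749), and without NDWT4, the lowest NDWT mouse, it was −0.67 (FDR 0.048) and a DEG. Hk2 was −0.49 (95% confidence interval −1.04 to 0.06), and the other 7 genes lay between −0.25 and 0.19. The Slc2a1 to Slc2a2 ratio was higher in the libraries labelled TSP-1 null by 0.74 (exact permutation p 0.00794, adjusted 0.0254); it was −3.76 to −3.14 in NDKO and −4.46 to −3.90 in NDWT. Slc2a2 measured 39.8 to 66.1 FPKM in NDKO and 59.4 to 89.8 in NDWT (log2FC −0.55, limma FDR 0.0174).

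On CDAHFD, 0 of the 10 genes were DEGs in HFKO against HFWT by limma, where 0.496% of all tested genes were, 0 passed the FDR alone (1.12%), and 0 were without overlap (4.98%). At an unadjusted p under 0.05 there were 2, Hk3 (log2FC −0.45, 95% confidence interval −0.89 to −0.02, limma FDR 0.271) and Pkm (−0.36, −0.69 to −0.03, FDR 0.248). The other 8 genes lay between −0.25 and 0.12. Pfkp against Pfkl was lower in HFKO by 0.37 on the log2 scale, without overlap between the groups (exact permutation p 0.00794, adjusted 0.0254), and Eno1 against Eno3 was higher by 0.26 (p 0.0159, adjusted 0.0462). The interaction of diet and genotype gave 0 DEGs among the 10 genes by limma against 0.647% of all tested genes, 0 passed the FDR alone (0.854%), and Aldoa alone had an unadjusted p under 0.05.

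Markers of other cell types moved with diet alongside these genes. The summed FPKM of 9 macrophage markers was 191 to 258 in NDWT and 1193 to 1633 in HFWT, and 168 to 294 in NDKO and 745 to 1612 in HFKO. Different markers led the sum on the 2 diets. In HFWT Lyz2 (mean 870) and Gpnmb (270) led. In NDWT Cd5l (73.7) and Clec4f (67.5) led, with Lyz2 at 44.6 and Gpnmb at 0.494. Clec4f was lower on CDAHFD, at 29.7 in HFWT. Of the 9 macrophage markers, 6 were higher and 1 lower DEGs in WT livers, and 7 higher and 1 lower in TSP-1 null livers. For this and the counts below, 44.1% of all tested genes were higher and 4.62% lower DEGs in WT livers. In TSP-1 null livers the shares were 41.9% and 4%. Adgre1 was not measured under that name, and none of the 9 was at 0 in every library. All 5 tested neutrophil markers (of 10 listed), all 9 markers of stellate cells and myofibroblasts and all 5 tested cholangiocyte markers (of 6) were higher DEGs in both genotypes, as were 8 of 9 markers of T and B cells, and 2 of 7 endothelial markers in WT livers and 3 in TSP-1 null livers. Markers low on control diet passed the filter only if high on CDAHFD, so counts of tested neutrophil and cholangiocyte markers were partly set by it. Krt7 passed with means of 0.0932 FPKM in NDWT and 1.26 in HFWT. Elane, with 0.348 and 0.379, was not tested. Hepatocyte markers summed to 53223 to 57977 in NDWT and 38034 to 52173 in HFWT, where 4 of 10 were lower DEGs. They summed to 58542 to 63447 in NDKO and 46564 to 60179 in HFKO, which overlapped, with 4 lower and 1 higher DEGs. In bulk liver a larger share of cells of a type and more RNA per cell cannot be told apart, and the part of these markers in the results above was not tested. Skeletal muscle markers, with Tnnc2 at 0 in every library, summed to at most 1.68 FPKM, and any part of muscle RNA in Aldoa and Pkm was not tested. Summed erythroid markers ranged from 126 to 186 FPKM in NDWT and 105 to 221 in HFWT, and from 131 to 339 in NDKO and 104 to 207 in HFKO, where 2 of 5 tested were lower DEGs. Those of adipocytes were at most 5.95 and those of pancreatic acinar cells at most 0.462 in any library.

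Within groups the same libraries were high or low for several of the genes. HFKO5 held the highest HFKO value of 8 of the 10 genes, where its macrophage marker sum was also the highest (1612), and HFKO4 the lowest of 7, where the sum was lowest (745). HFKO4 also held the highest HFKO values of Gapdh and Pgk1. NDWT4 held the lowest NDWT value of 7 genes and the lowest sum (191). In NDKO the sum was highest in NDKO1 (294) and lowest in NDKO2 (168). There Hk3 was highest in NDKO4 and lowest in NDKO5, and Pkm highest in NDKO1 and lowest in NDKO4. HFWT5 had the lowest HFWT value of 8 genes, the lowest macrophage marker sum of its group (1193) and the gene model shares given above. The highest HFWT sum was in HFWT3 (1633), which held the highest HFWT value of 3 genes, Hk3 among them. HFWT1 (sum 1525) held the highest of 5, Pkm among them. Without HFWT5 the same number of genes, 7, were DEGs in WT, and Hk1 had a log2FC of 2.03 and Gapdh of −0.02. Without HFKO4 the log2FC of Pkm in HFKO against HFWT was −0.21 and of Hk3 −0.26, and without HFKO5 they were −0.49 and −0.65, so the size of both depended on single mice.

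**Figure D5:**
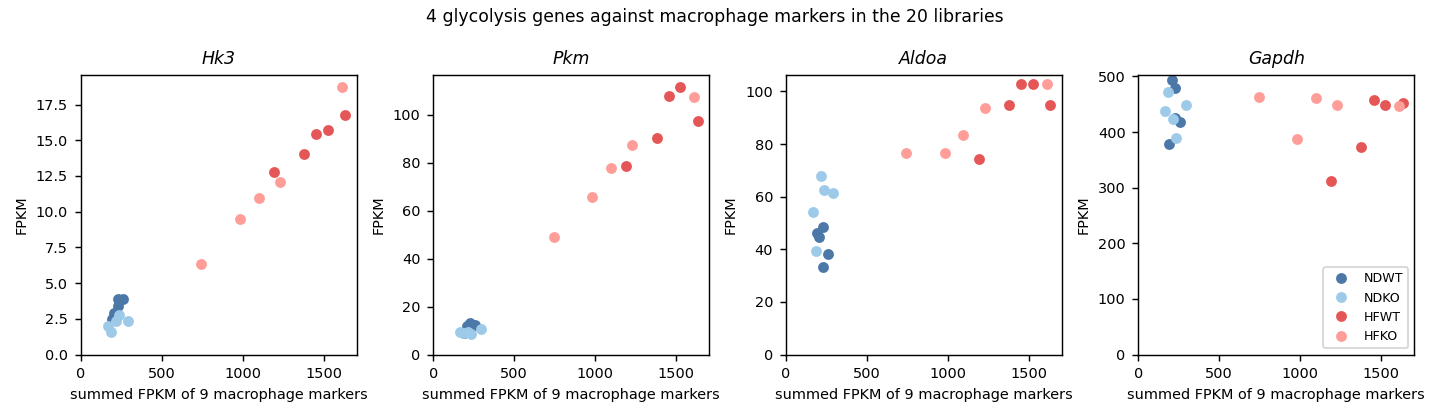
FPKM of Hk3, Pkm, Aldoa and Gapdh against the summed FPKM of 9 macrophage markers in the 20 libraries, on linear axes from 0 and coloured by group. Among CDAHFD libraries Hk3 and Pkm are lowest in HFKO4, which has the lowest sum (745). The sum is highest in HFWT3 (1633), whereas Hk3 is highest in HFKO5 (1612) and Pkm in HFWT1 (1525). Gapdh was 463 FPKM in HFKO4 and 446 in HFKO5.

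Deviations of log2(FPKM + 0.1) from the group means show which genes varied together between mice of a group over the 20 libraries. They share library and depth and are given as a description. Those of Pkm were most like those of Fes (r = 0.95), a myeloid tyrosine kinase, Npc2 (0.92), a lysosomal cholesterol carrier, and Cd68 (0.92), a macrophage marker. Those of Hk3 were most like Arhgap30 (0.94), Vav1 (0.94), a signalling protein of blood cells, and Slc11a1 (0.93), a metal transporter of phagocytes, and those of Hk2 most like Dock2 (0.88), Nckap1l (0.87), both regulators of actin in blood cells, and Iqgap1 (0.86). For Pgk1 they were Higd1a (0.88), Ndufb6 (0.82), a subunit of mitochondrial complex I, and Ormdl1 (0.80), for Gapdh Tmem8 (0.86), Dyrk1b (0.84) and Atox1 (0.84), and for Eno1 Pus1 (0.85), Eif4ebp1 (0.82) and Clpp (0.81). Hk1 varied most like Shisa5, Sf3b2 and Bag6 (0.93 each), Pfkp like Tmpo (0.85), Panx1 (0.82) and C1qtnf6 (0.82), Aldoa like Plbd2 (0.91), Fam83g (0.90) and Ablim3 (0.87), and Slc2a1 like Ston2 (0.86), Htt (0.86) and Akr1b3 (0.85). Among the 10 genes themselves Pkm and Hk3 were most alike (r = 0.84) and Pgk1 and Hk3 least (−0.43).

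Of 25 other genes of glycolysis and lactate transport, 24 were tested, and 9 were higher and 3 lower DEGs in WT, and 13 higher and 2 lower in TSP-1 null livers. Of all tested genes 44.1% were higher and 4.62% lower DEGs in WT livers, and 41.9% and 4% in TSP-1 null livers. The median log2FC of the 24 was 0.49 and 0.74, against 0.53 and 0.50 over all tested genes. Pfkfb4, a bifunctional enzyme that sets the activator of phosphofructokinase, rose from 0.241 to 0.394 FPKM in NDWT to 2.52 to 4.09 in HFWT (log2FC 3.04, limma FDR 1.58e-11). Slc16a3, a lactate exporter, Aldoc, the brain aldolase, and Ldhb, the heart form of lactate dehydrogenase, had log2FCs of 2.48, 1.94 and 2.13 in WT. Pfkfb4 and Slc16a3 reached at most 0.394 and 0.236 FPKM in control libraries, and Hkdc1 and Eno2, also of this list, at most 0.1 and 0.055. All of them passed the filter only through CDAHFD libraries, so the counts of higher DEGs with diet were partly set by it. Between genotypes on control diet Pfkfb1 was higher (log2FC 0.71) and Pklr lower (−0.82, limma FDR 0.0353) in the libraries labelled TSP-1 null, and on CDAHFD 0 of the 24 were DEGs by limma, with 2 at an unadjusted p under 0.05. DEGs between genotypes made up 4.77% of all tested genes on control diet and 0.496% on CDAHFD.

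Of 14 genes that respond to hypoxia-inducible factor, 12 were tested. In WT 4 were higher and 2 lower DEGs, and in TSP-1 null livers 5 and 1, with a median log2FC of 0.29 and 0.47, under that of all genes. Hmox1, the heme-degrading enzyme, rose by a log2FC of 1.71 in WT livers and Adm, a vasodilator peptide, by 1.40, whereas Bnip3, a mitophagy receptor, was a lower DEG in both genotypes (−0.73 and −0.97). Between genotypes on control diet 1 was higher, Ddit4 (log2FC 1.07), and 2 lower, Egln3 (−0.59) and P4ha1 (−0.73), and on CDAHFD 0 passed by limma, with 0 at an unadjusted p under 0.05. Here too, 4.77% of all tested genes were DEGs on control diet and 0.496% on CDAHFD. Of 9 transcriptional regulators of the pathway, 2 were higher and 1 lower in WT livers and 1 was higher in TSP-1 null livers. Their median log2FC was −0.14 and −0.19, also under that of all genes. Beside the diet counts of both lists, 44.1% of all tested genes were higher and 4.62% lower DEGs in WT livers. In TSP-1 null livers 41.9% were higher and 4% lower. Myc, which drives glycolytic genes in growing cells, had a log2FC of 2.54 in WT livers and 1.44 in TSP-1 null livers (limma FDR 3.22e-09 and 6.56e-06) and was higher in NDKO than in NDWT (1.20, FDR 0.00152), as was Ppargc1a (1.28), a coactivator of gluconeogenesis.

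Some of these genes have near-identical copies, mostly processed pseudogenes, with which counting may share reads. Only other genes that share at least 100 of the 31-base sequences of a gene were counted. For Gapdh there were 130 such genes, and 27.2% of the 31-base sequences of its transcripts occur in them. The 118 of these in the table summed to 26.6 FPKM in NDWT and 27.1 in HFWT, against 439 and 409 for Gapdh. By the same rule the share was 54.7% for Pgk1, 34.0% for Pkm, 28.4% for Eno1 and 10.1% for Aldoa. It was 0% for Hk1, Hk2, Hk3, Pfkp and Slc2a1, where no other gene shared as many as 100, and fewer shared sequences were not counted. For Eno1 the other genes in the table summed to 3.41 FPKM in NDWT and 4.68 in HFWT. Hk3 overlaps Unc5a on the opposite strand (0.912 FPKM in NDWT, 2.63 in HFWT) and Pfkp overlaps Pitrm1 (9.22 and 12.0). The strand setting of the counting was not given in the sources used here, so reads of such pairs may not have been told apart, and Pfkp, below its neighbour in level, is uncertain to that extent.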

How the data were processed

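RNA of snap-frozen liver (right medial lobe per the labels, right lateral lobe per the study's methods) was reverse transcribed with a directional poly(A) kit and sequenced on a HiSeq instrument. The authors processed the reads with QuickRNASeq and deposited FPKM per gene, with no further normalization between libraries. The processing notes name STAR 2.5.2, Subread 1.5.1 and featureCounts, and a human build, while the gene coordinates of the table are of mouse GRCm38. Gene lengths, the other column used, come from the same table. FPKM times length gave whole fragments for 99.965% to 100% of the values precise enough to check, within 0.05 fragments or, where larger, the rounding error of FPKM plus 0.02, and 3 fragments on 1 kb correspond to 0.129 to 0.192 FPKM (counting error only).

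The 10 genes, the other lists and the ratios were chosen with earlier results of these data known. Groups follow the sample labels. Genes were kept where FPKM exceeded 0.5 in 5 or more libraries. Then log2(FPKM + 0.1) of all 20 libraries was fitted at once, with 1 mean per group and a two-sided moderated test with a mean-variance trend (limma 3.58.1, run under R 4.3.3), on a scale that understates changes of low genes. Ratios were tested with scipy 1.17.1, and 4 of the 8 are not reported here. The fit was tested on simulated data. Named genes were the 10 genes, their partner isoforms, Thbs1, the 4 DEGs of lowest FDR per list and comparison, the 3 genes of most alike deviations and the 2 most abundant markers per cell type. In the text, further glycolysis, marker, reference, pseudogene and overlapping genes were named after their values were seen. Alternatives were pseudocounts of 0.01 and 1, no filter or FPKM above 1, median of ratios scaling, quantile normalization, 2 groups per fit, the replicate number as a block, no fold threshold and leaving out each library.

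Replicate numbers did not pair the samples: deviations of same-numbered libraries from their group means correlated with r of −0.133 to 0.0812 over 30 pairs. Promoter sequences are from RefSeq (GRCm38.p6), where all 10 genes matched.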

Additional observations from a re-analysis of the deposited data

Results flagged for a closer look

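Of 40 groups of 5 values (10 genes in 4 groups), 3 held a mouse whose distance to the nearest other mouse was more than 0.71 of the range of the group. Chance gives about 1 such group in 20. Hk2 was 4.06 FPKM in HFKO5 and 1.73 to 2.32 in the other HFKO mice, and without HFKO5 its log2FC in HFKO against NDKO was 2.14. Aldoa was 74.4 FPKM in HFWT5 and 94.8 to 103 in the other HFWT mice, and without HFWT5 its log2FC in HFWT against NDWT was 1.24. Gapdh was 387 FPKM in HFKO1 and 446 to 463 in the other HFKO mice, and without HFKO1 its log2FC in HFKO against NDKO was 0.07.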

How the results depend on the processing

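Pseudocount, filter and the number of groups in a fit left the count of DEGs among the 10 genes at 7 and 7 with diet and 0 between genotypes. Without the fold threshold it was 8 and 8 with diet and 1 in NDKO against NDWT, reference transcripts 12, 10 and 1, and the other glycolysis genes 5 in NDKO against NDWT. Median of ratios scaling turned Eno1 to −0.17 in WT livers and −0.28 in TSP-1 null livers and Gapdh to −0.50 in TSP-1 null livers, since it lowers every CDAHFD value against control. The other glycolysis genes, 2 DEGs in NDKO against NDWT, gave 1 without the filter, 1 with quantile normalization and 0 with 2 groups per fit, and hypoxia-responsive genes, 3 there, gave 1 with a pseudocount of 1. With that pseudocount 3 of all 8 ratios tested passed in WT with diet and 1 in HFKO against HFWT. The cause was not tested.

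With the replicate number as a block, 7 and 7 of the 10 genes were DEGs with diet, and the other glycolysis genes gave 1 in NDKO against NDWT. In the block 0 ratios passed in each of the 4 comparisons, as 5 pairs cannot give an exact p under 0.0625. Deviations of same-numbered libraries had a median r of 0.0202, with 0 of 30 pairs over 0.1, so these mice share only a number. The block changed no other count by more than 1.5 times.

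Leaving out 1 library gave 7 to 7 DEGs among the 10 genes in WT, 6 to 7 in TSP-1 null livers, 0 to 1 in NDKO against NDWT (1 without NDWT4) and 0 to 0 in HFKO against HFWT. The ranges in NDKO against NDWT were 1 to 3 for the other glycolysis genes (1 without NDWT1, NDKO3 or NDKO4), 0 to 1 for reference transcripts (1 without NDWT4, NDWT5 or NDKO2) and 1 to 3 for hypoxia-responsive genes (1 without NDWT2). Ratios passing ranged from 0 to 6 in HFWT against NDWT, 0 to 4 in HFKO against NDKO, 1 to 3 in NDKO against NDWT and 0 to 2 in HFKO against HFWT. They were 0 without any 1 of HFWT1 to HFWT4 in the first, HFKO1, HFKO3 or HFKO4 in the second, and any of these 7 in the last, and 3 without NDKO2 and 2 without NDKO5 in NDKO against NDWT. In such tests 4 mice against 5 cannot go below 0.0159, so calls at an adjusted p of 0.0508 were lost by the number of mice. Depth limits Hk2 and Pfkp most, with 18 to 101 fragments in control libraries.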
